A study of Mus musculus with 12 samples.

Results

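The subject of this report is the response of hepatocyte chromatin to an overnight fast as measured in freshly processed mouse liver. It compares 3 libraries from fasted mice with 3 from fed mice, 6 of the 12 libraries in the series, over all 52530 peaks of the deposited table. The other 6 libraries came from frozen liver and were used for 1 purpose, to name peaks at which the fresh comparison gave a difference that the frozen comparison did not. All animals were female HEP-INTACT mice, a line from which hepatocyte nuclei can be pulled out of whole liver on beads (INTACT stands for the isolation of nuclei tagged in a chosen cell type); neither the promoter that drives the tag nor the age of the mice is stated in the labels. The fasted group had no food for 16 h from ZT12, the hour at which the lights go off and mice become active. The fed group ate ad libitum over the same 16 h and was killed at the same hour, so both groups share the time of day. About 25000 bead-bound nuclei per reaction were cut with Tn5 transposase, which inserts sequencing adapters where DNA is accessible (ATAC-seq). Columns of the table carry the letters A, B and C, which match no mouse number in the labels, so a letter names a library here and nothing more. The labels give each fresh library its own mouse, and the p-values below measure the spread among these 3 mice per group.

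In the fed state insulin drives hepatocytes to store glucose as glycogen and to turn the excess into fat through the transcription factors SREBP-1c, LXR and ChREBP. During a fast glucagon, acting through cAMP and CREB, and glucocorticoid, acting through its receptor, switch on glucose release, while fatty acids from fat tissue activate PPAR alpha, whose targets carry out fatty acid oxidation and the making of ketone bodies. Enhancers, which often lie far from the gene they serve, and promoters gain or lose accessibility as these factors bind and leave, and ATAC-seq counts the reads that come from such open sites.

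Values below are the authors' normalized reads per peak. In each library all values were whole multiples of 1 step, between 0.519 and 1.33 depending on the library, and a step was taken to be 1 read. That reading comes from the values alone and is stated in no source used here, so numbers of reads below are numbers of steps. On it the 6 fresh libraries held between 5852508 and 14506057 reads in peaks, with a median of 86.0 to 217 per peak. The tissue label was checked against marker genes. Of 19 hepatocyte genes 17 had a peak within 1 kb of their start and Tf had no peak, whereas none of 9 endothelial, 8 macrophage or 6 lymphocyte genes had a peak there, and 1 of 7 stellate and 1 of 5 bile duct genes did. The summed level of the 19 peaks nearest endothelial genes ran from 1977 to 2087 in the fed and from 1851 to 1905 in the fasted libraries, and of these peaks 3 were higher and 5 lower. The sums of the 4 peaks nearest stellate markers (338.6 to 421 fed, 275 to 329 fasted) and of the 4 nearest bile duct markers (328 to 354 fed, 281 to 318 fasted) were also lower in every fasted library, while those of the 3 macrophage peaks (280.4 to 304 and 244 to 313) and of the 244 hepatocyte peaks (32870 to 33274 and 31998 to 32974) overlapped. The median log2 difference (fasted minus fed) was 0.07 over the endothelial, -0.35 over the stellate and -0.08 over the bile duct peaks. It was 0.04 over all peaks and -0.04 over those beyond 1 kb of a start. All 19 endothelial peaks lay beyond 1 kb. Of these 19 peaks 26.3% fell and 15.8% rose, against 23.0% and 10.5% of all peaks beyond 1 kb. The part of other cells in the results was not tested, and in a pool of nuclei fewer nuclei with an open site and less opening per nucleus cannot be told apart.

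Fasting changed accessibility at about 1 peak in 4. With limma on log2(value + 1) and a Benjamini-Hochberg adjusted p under 0.05 over all 52530 peaks, 14477 peaks (27.6%) differed, 6003 higher (11.4%) and 8474 lower (16.1%) in the fasted mice. Losses were also the larger changes: the median difference of the lower peaks was -0.75 on the log2 scale and that of the higher peaks 0.52. By more than 1 on the log2 scale 627 peaks (1.19%) rose and 2543 (4.84%) fell, and by more than 2 the counts were 48 and 287. In 23698 peaks (45.1%) the 3 fasted and 3 fed values did not overlap, with all fasted values above in 12104 (23.0%) and below in 11594 (22.1%). The balance of gains and losses rests on the scaling. When libraries were scaled to the median of the peaks within 1 kb of a gene start, all differences shifted down by about 0.12 (the median over all peaks went from 0.04 to -0.08) and the counts became 2952 higher and 11849 lower. The number of higher peaks also rested on single libraries: it was 3165 without fasted A, 3660 without fed B and 3897 without fed A, while the lower count stayed between 6087 and 8755 over the 6 such fits.

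**Figure D1:**
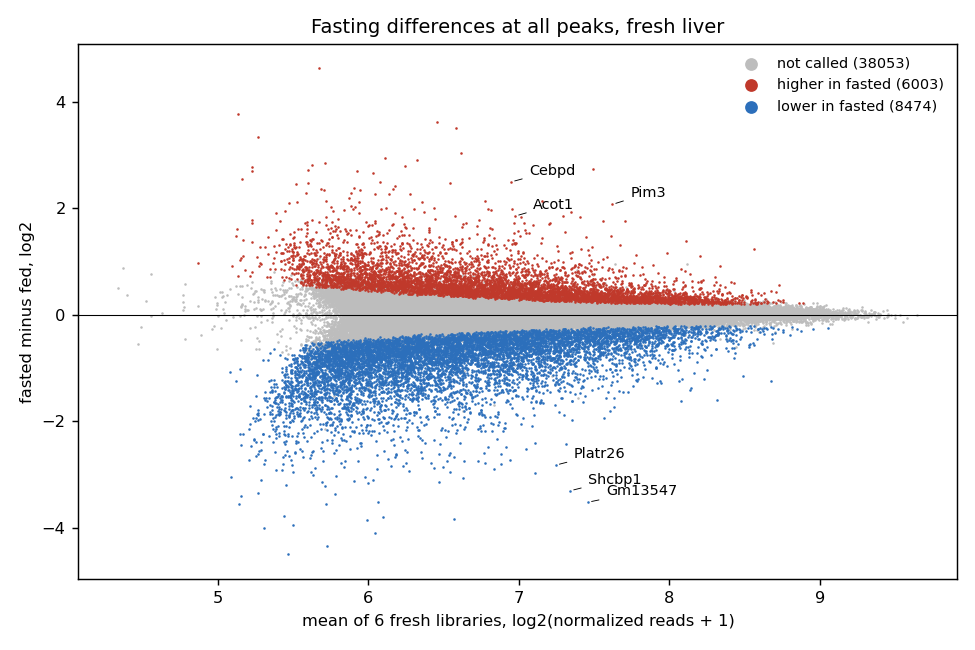
Each point is 1 of 52530 peaks, with the mean of the 6 fresh libraries on the x axis (log2 of normalized reads + 1) and the fasted minus fed difference on the y axis (log2). Red marks the 6003 higher and blue the 8474 lower peaks, and the blue cloud reaches farther from 0, with 287 peaks lower by more than 2 against 48 higher.

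The 3 fasted libraries did not lie equally far from the fed ones. Over the 2543 peaks lower by more than 1, the median distance from the fed mean was -1.36 in fasted A, -1.02 in fasted B and -1.72 in fasted C (log2), and fasted C held the lowest of the 3 values at 1871 of them (73.6%) against 80 (3.15%) for fasted B. Over the 627 peaks higher by more than 1 the order was the same but the distances were closer, 1.29 in fasted A, 1.17 in fasted B and 1.32 in fasted C. Fasted B was the deepest of the 3 libraries with 14506057 reads in peaks and fasted C the shallowest with 6864441. Across these 3 libraries the distance from the fed mean was smaller the deeper the library. Mouse and depth cannot be told apart here, and the part of depth in the difference was not tested.

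Gains and losses lay in different places relative to genes. Within 1 kb of a gene start 2446 of 18534 peaks rose (13.2%) and 639 fell (3.45%), with a median difference of 0.11. Farther out 3557 of 33996 rose and 7835 fell, with a median of -0.04. The share of peaks that fell climbed from 1.82% within 0.1 kb of a start through 15.1% at 1 to 2 kb to 27.9% beyond 100 kb. The share that rose stayed between 9.82% and 14.5% over the same 10 distance bins. In all, 40.7% of the gains but 7.54% of the losses lay within 1 kb of a start. Under the scaling to peaks near starts, where the median there is set to 0, 903 of these peaks rose and 1286 fell, so the excess of gains at starts is relative to the rest of the table. Near starts 1 library also moved the counts: gains fell to 1054 without fasted A, 1266 without fed B and 1419 without fed A, and losses to 418 without fed B.

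**Figure D2:**
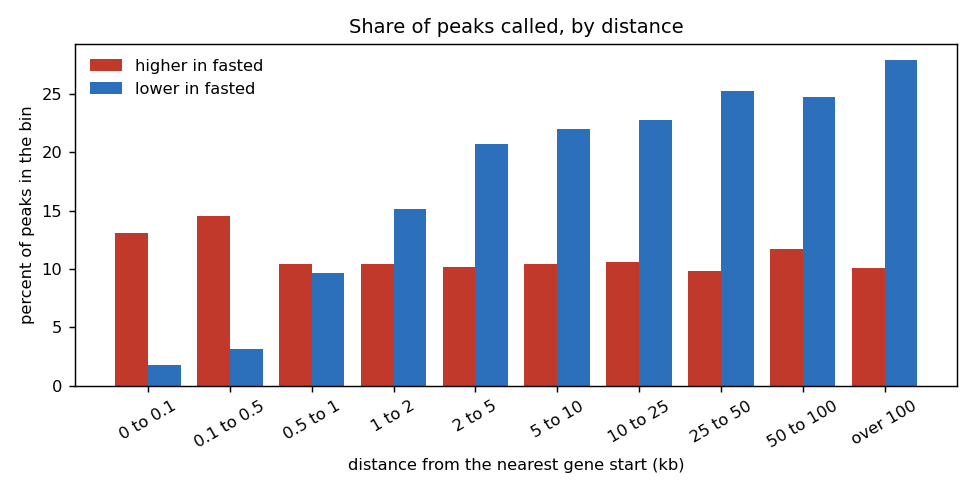
Bars give the percent of peaks in each bin of distance from the nearest gene start (x axis, kb) that were higher (red) or lower (blue) in fasted mice. The blue bars climb from 1.82% to 27.9% with distance while the red bars stay between 9.82% and 14.5%.

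The same shift can be read from each library without any call. Peaks within 1 kb of a start took 44.8%, 44.5% and 44.5% of the normalized reads in fed A, B and C, and 47.9%, 47.0% and 48.0% in fasted A, B and C. All 3 fasted values lay above all 3 fed values, with means of 44.6% ± 0.193 and 47.6% ± 0.550 (SD, n = 3), a difference of 3.01 percentage points. The exact two-sided permutation test gave p = 0.1, the smallest value that 3 against 3 allows. Without the 1% of peaks with the most reads the difference was 3.10 points. Introns went the other way, from 32.5% ± 0.0942 to 30.8% ± 0.385 of reads, as did intergenic peaks, from 23.0% ± 0.140 to 22.1% ± 0.121, each with the same exact permutation p of 0.1.

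By annotation class, of 14635 peaks annotated as promoters 1872 rose and 396 fell, and of 750 in 5′ untranslated regions 127 rose and 32 fell. CpG islands outside promoters, GC-rich stretches that mostly lack DNA methylation, had 412 gains and 43 losses among 2214 peaks. Introns (2055 higher and 4400 lower of 20078), intergenic peaks (1643 and 3016 of 14141) and 3′ untranslated regions (41 and 130 of 491) leaned to losses. Losses were frequent in the RMER1A, RMER1B and RMER19B repeat elements: 43 of 76 RMER1B peaks fell and 3 rose (median -0.44), as did 24 of 42 RMER1A peaks against 2 (median -0.43) and 33 of 75 RMER19B peaks against 5 (median -0.32). RMER15 peaks differed from these, with 12 losses and 13 gains among 54. Peaks in ERVK elements, a family of endogenous retroviruses, had 197 losses (28.3%) and 44 gains (6.33%) among 695 (median -0.13). Of all peaks beyond 1 kb of a start 23.0% fell and 10.5% rose. The share that fell was 26.6% in the MIR, 24.4% in the ERVL and 17.1% in the ERV1 repeat family. Losses in ERVK elements were thus not far above those of distal peaks or of MIR elements. Signal level bore on the counts as well, since the 25% of peaks with the lowest mean level had 1598 gains and 3190 losses and the 25% with the highest 1134 and 970.

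Peaks were then ranked among the calls above the median level whose groups did not overlap. The 10 with the largest gain (1 per gene) ran from 1.83 to 2.73 on the log2 scale. At the 3′ end of Cebpd, which encodes a C/EBP transcription factor, the peak at chr16:15889606-15889806 (mm10) held 45.3, 34.5 and 28.9 normalized reads in fed A, B and C and 236, 158 and 233 in fasted A, B and C. The difference there was 2.50 ± 0.19 (log2 ± SE, adjusted p = 3.6e-05). A peak 13.6 kb downstream of the start of Pim3, a serine/threonine kinase gene, at chr15:88875664-88875864 held 79.9, 67.7 and 76.2 in fed and 348, 293 and 309.6 in fasted libraries (2.07 ± 0.10, adjusted p = 4.48e-06). The groups were tight and far apart. The peak 2 kb upstream of Gm28856 rose most of the 10 (2.73 ± 0.42), from 102, 41.2 and 19.7 to 341, 221 and 348, and its fed libraries spread widely. The others lay 51.5 kb upstream of Cdkn2aipnl (2.14), at the Plin4 promoter (1.98), far upstream of Rhobtb1 (1.93), upstream of Pdk4 (1.86), at the Acot1 promoter (1.85), near Ccdc172 (1.84) and at the Mt2 promoter (1.83). Plin4 encodes a lipid droplet coat protein, Acot1 a cytosolic acyl-CoA thioesterase and Mt2 a metal-binding metallothionein. Mt2 had 1 fed library, fed C at 147, well above the other two at 45.3 and 53.1, though still below all fasted values.

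The 10 largest losses by the same rule reached farther. In the last intron of a transcript near Gm13547, at chr2:29737636-29737836, the fed libraries held 334, 365 and 269 and the fasted libraries 21.7, 34.8 and 26.0, a difference of -3.52 ± 0.17 (adjusted p = 4.48e-06). The peak 59.7 kb upstream of Shcbp1 at chr8:4839177-4839377 fell from 304, 349 and 227 to 23.8, 36.9 and 26.0 (-3.30 ± 0.19, adjusted p = 8.64e-06). Groups apart were required by the rule, and at both sites the gap was wide. The promoter peak of Ace, the gene of angiotensin-converting enzyme, fell from 207, 200.5 and 167 to 42.8, 57.1 and 5.65 (-2.90 ± 0.59, adjusted p = 0.00411), and the fasted libraries differed among themselves, fasted C lying far below the other two. Fasted C was likewise lowest near 9330111N05Rik (13.6 against 36.0 and 52.5), Tmem178 (10.2 against 39.4 and 51.9) and Mcm5 (22.6 against 56.3 and 84.7). The remaining losses lay in introns of Platr26 (-2.82) and Xkr4 (-2.53), at the end of Mir6392 (-2.62) and upstream of A330076C08Rik (-2.48). All 20 of these peaks, picked as large calls with groups apart, kept their call with each library left out in turn. The loss at Ace missed the threshold when all 12 libraries shared one fit (adjusted p = 0.0581).

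The peak nearest the start was then read for 34 genes of fasting and feeding. Of these 12 rose (35.3%), 2 fell (5.88%) and 20 did not pass. Among all 18534 peaks within 1 kb of a start 13.2% rose and 3.45% fell. Fgf21, whose product is a hormone the fasted liver secretes, rose most: its start held 34.6, 25.2 and 32.9 in fed and 117, 139.7 and 119 in fasted libraries (1.99 ± 0.17, adjusted p = 5.95e-05). Cdkn1a, which encodes the cell cycle inhibitor p21, went from 88.7, 79.7 and 84.8 to 326, 259 and 288 (1.77 ± 0.10, adjusted p = 8.64e-06). At both genes the lowest fasted library stood far above the highest fed one. The omega hydroxylase genes Cyp4a14 (1.67) and Cyp4a10 (1.72, nearest peak 4.05 kb upstream) and Angptl4, which encodes an inhibitor of lipoprotein lipase, followed. Angptl4 held 111, 50.5 and 84.8 in fed libraries and 199.5, 204 and 197 in fasted ones (1.35 ± 0.21), with fasted values that were nearly equal and fed values that spread. The immediate early receptor gene Nr4a1 rose by 0.90.

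The other 6 gains were small and less secure: Ppargc1a (0.46), Socs2 (0.38), Sik1 (0.34), Pck1 (0.33), Pdk4 (0.24) and Cpt1a (0.21) all lost the call when libraries were scaled to peaks near starts (adjusted p of 0.103, 0.141, 0.0625, 0.177, 0.217 and 0.362) and when some single library was left out. Ppargc1a lost it without fed B, fed C, fasted A or fasted C, Pck1 without any of the same 4, Pdk4 without fed A, fed C or fasted A, Sik1 without fasted A (adjusted p = 0.0525), Socs2 without any library but fed C, and Cpt1a without any of the 6, with adjusted p-values of up to 0.15. The 2 losses were at Scd1, the main stearoyl-CoA desaturase of liver, from 197, 218 and 181 to 121, 109.6 and 101 (-0.84 ± 0.10), and Fasn, fatty acid synthase, from 248, 252 and 204 to 174, 178 and 160.5 (-0.45 ± 0.10). In each the groups did not overlap. At Ppargc1a they did, with fasted B at 156 below fed A at 157. Starts that did not pass included Igfbp1 (0.28), Irs2 (0.17), Klf9 (0.16), G6pc (0.16), Tat (0.06) and Fkbp5 (0.08). The first 3 of these had non-overlapping groups with all fasted values above, as did 5851 of all 18534 peaks within 1 kb of a start. Albumin (0.16) and Hnf4a (0.11), genes of hepatocyte identity, did not pass either.

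**Figure D3:**
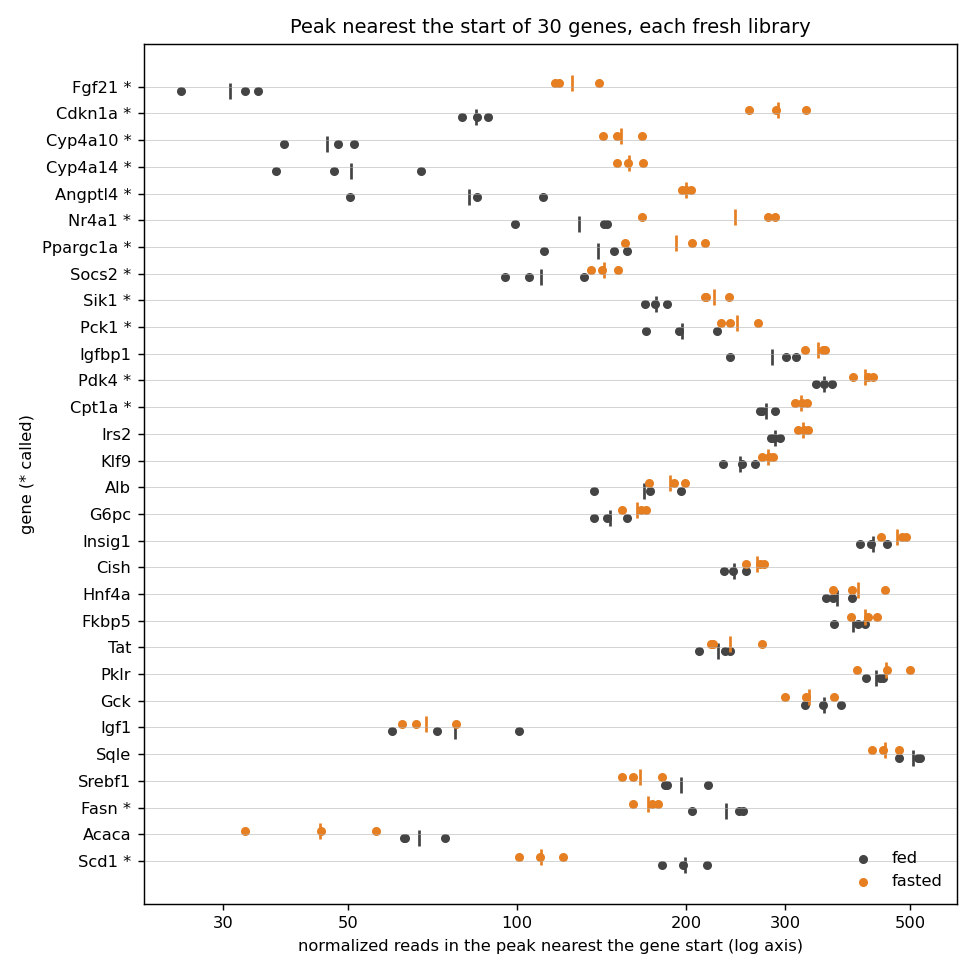
Points are single fresh libraries and ticks are group means (dark grey fed, orange fasted, slightly offset) for the peak nearest the start of each of 30 genes, in normalized reads on a log axis, ordered by the difference. Fgf21, Cdkn1a, Cyp4a10, Cyp4a14 and Angptl4 at the top show groups far apart, and most genes in the middle overlap or nearly touch.

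The RefSeq bases just before the start of 4 genes with large promoter gains, shown because the start itself opened, from GRCm38.p6 (the mm10 build), are given 5′ to 3′ and end at the base before the start. Capitals mark a match to any of the 19 motifs searched, which are described further on.
Fgf21 chr7:45615491-45615740 (- strand): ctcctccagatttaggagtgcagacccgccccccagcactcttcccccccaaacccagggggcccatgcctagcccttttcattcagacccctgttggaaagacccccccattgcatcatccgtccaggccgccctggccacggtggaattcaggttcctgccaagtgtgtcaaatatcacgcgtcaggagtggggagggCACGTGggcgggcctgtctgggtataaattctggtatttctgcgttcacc
Plin4 chr17:56109783-56110032 (- strand): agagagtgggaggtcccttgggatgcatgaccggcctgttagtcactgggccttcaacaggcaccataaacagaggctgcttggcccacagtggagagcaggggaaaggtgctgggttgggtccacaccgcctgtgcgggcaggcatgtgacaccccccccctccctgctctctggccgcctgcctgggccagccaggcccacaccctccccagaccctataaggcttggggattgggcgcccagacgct
Acot1 chr12:84009252-84009501 (+ strand): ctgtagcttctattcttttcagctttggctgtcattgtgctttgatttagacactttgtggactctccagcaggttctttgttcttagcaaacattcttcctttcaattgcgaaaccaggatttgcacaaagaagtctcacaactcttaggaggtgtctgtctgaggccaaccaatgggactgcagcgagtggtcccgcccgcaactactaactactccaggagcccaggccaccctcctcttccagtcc
Cdkn1a chr17:29093519-29093768 (+ strand): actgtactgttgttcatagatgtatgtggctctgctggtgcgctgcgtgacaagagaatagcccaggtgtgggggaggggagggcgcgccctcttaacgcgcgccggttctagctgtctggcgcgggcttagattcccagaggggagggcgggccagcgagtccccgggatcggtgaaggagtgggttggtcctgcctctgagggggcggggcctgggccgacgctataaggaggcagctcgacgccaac
Fgf21 held 1 E-box, CACGTG, beginning 50 bases before the start, and the other 3 stretches held no match. GC content was 59.6% at Fgf21, 65.2% at Plin4, 48.8% at Acot1 and 64.8% at Cdkn1a.

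At the gene lists that follow, the strongest peak of a gene is the one with its lowest p. Peaks near genes of fatty acid oxidation and ketogenesis rose more often than they fell. Around the 35 of 36 listed genes with a peak, 64 of 188 peaks rose (34.04%, against 11.4% of all peaks) and 13 fell (6.91%, against 16.1%), with a median difference of 0.20 against 0.04 for all peaks. Under the scaling to peaks near starts 49 rose and 20 fell. The omega hydroxylases of the Cyp4a family, classical PPAR alpha targets that oxidise the far end of fatty acids, had 8 of 10 peaks higher and none lower. A peak 11.3 kb downstream of the Cyp4a14 start had the largest log2 gain of all 52530 peaks: the fed libraries held 3.55, 1.33 and 4.60 and the fasted libraries 109.9, 104 and 75.7 (4.63 ± 0.40, adjusted p = 5.56e-05). That is 12 reads in all 3 fed libraries together against 430 in the fasted, and the pseudocount of 1 makes the log2 value an understatement. The peak 0.553 kb upstream of the same start went from 7.99, 7.97 and 9.86 to 64.5, 62.3 and 66.7 (2.78 ± 0.27). In the peroxisomal arm, which shortens very long fatty acids, 10 of 30 peaks rose and none fell. Ehhadh, its bifunctional enzyme, led with a peak 2.81 kb upstream of the start that held 9.76, 10.6 and 13.8 in fed and 84.1, 80.5 and 91.5 in fasted libraries (2.81 ± 0.24, adjusted p = 5.54e-05).

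The mitochondrial arm and the ketone body enzymes moved by less. Of 45 peaks near mitochondrial beta-oxidation enzymes 11 rose and 2 fell, and 5 of the 11 genes had a gain. The 2 subunits of the trifunctional protein were among them: an intron peak of Hadhb went from 28.4, 37.2 and 37.5 to 93.6, 99.2 and 96.1 (1.47 ± 0.17) and the promoter peak of Hadha from 49.7, 42.5 and 52.6 to 106, 96.6 and 91.5 (1.01 ± 0.15). Acadm, the medium-chain acyl-CoA dehydrogenase, was the exception with 2 losses, the stronger in an intron, from 132, 139 and 124 to 69.9, 86.2 and 46.3 (adjusted p = 0.00281). Ketone body genes had 10 gains and 1 loss in 25 peaks, with 6 gains in 9 peaks at Acat1 (at the promoter 151, 166 and 161 against 228, 226 and 217, 0.49 ± 0.08). The groups did not overlap at any of the peaks given here, as at 5860 of all 6003 gains and 8362 of all 8474 losses.

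Several regulators of the pathway gained and lost peaks within the same locus. Pdk4, the kinase that shuts pyruvate dehydrogenase, had 6 gains and 2 losses among 10 peaks. A pair of peaks 13.3 and 13.7 kb upstream rose by 2.46 and 1.86, while 1 in the 3′ untranslated region, 11 kb downstream of the start, fell by 1.05. At Angptl4 the promoter rose, and a peak in the first exon only 0.302 kb downstream of the start fell from 142, 173 and 148 to 48.2, 50.4 and 36.2 (-1.77 ± 0.16, adjusted p = 6.31e-05). The same gene had a peak 7.44 kb downstream that went from 10.6, 0 and 7.23 to 52.9, 59.2 and 74.6 (3.77 ± 0.74), or 23 reads in the fed against 258 in the fasted libraries. Cpt1a, which admits fatty acids to mitochondria, had 6 gains in 11 peaks and 1 loss deep in the gene, from 151, 203 and 164 to 84.1, 72.7 and 54.2 (-1.30 ± 0.16). Ppara, which encodes PPAR alpha, had 5 of 21 peaks lower and 1 higher. Of all peaks 16.1% fell, and of those beyond 1 kb of a start 23.0%, so its losses were about as frequent as among distal peaks. The Ppara peak 3.55 kb upstream fell from 170.4, 129 and 189 to 64.5, 84.2 and 57.6 (-1.23 ± 0.17).

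Peaks near lipogenic genes fell more often than they rose. Around 23 of 25 listed genes with a peak, 68 of 199 peaks fell (34.2%, against 16.1% of all peaks) and 21 rose (10.6%, against 11.4%), with a median of -0.13. Regulators stood at 18 losses and no gain in 37 peaks, and the enzymes of fatty acid synthesis at 17 losses and no gain in 42. Srebf1, which encodes SREBP-1, had 9 losses in 15 peaks. A promoter peak at chr11:60222409-60222609 (mm10), 0.072 kb downstream of its nearest annotated start, fell from 110.0, 142 and 118 to 26.5, 29.6 and 27.1 (-2.11 ± 0.17, adjusted p = 3.99e-05), whereas the promoter peak 0.041 kb upstream of its nearest start held 218, 183 and 185 and 181, 161 and 154 (-0.24 ± 0.10, adjusted p = 0.0918). Thrsp, a small protein of lipogenesis also called Spot 14, lost all 6 of its peaks, the strongest in an intron from 79.9, 81.0 and 69.7 to 20.4, 23.4 and 26.0 (-1.69 ± 0.20). Mlxipl, which encodes ChREBP, had 3 losses in 12 peaks, the strongest of -0.57, while the LXR genes Nr1h3 and Nr1h2 had 2 peaks each and none passed.

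Among the enzymes, Scd1 had 9 losses in 11 peaks. The strongest lay 13.6 kb downstream of the start at the 3′ end, at chr19:44393983-44394183, and went from 164, 243 and 122 to 18.3, 18.2 and 21.5 (-3.07 ± 0.23, adjusted p = 3.23e-05). The peak 0.195 kb before the start fell from 130.5, 171 and 92.6 to 35.3, 32.7 and 31.6 (-1.91 ± 0.21). Losses came at 5 of 12 peaks of Fasn, 4 of 9 of Acly, 3 of 7 of Me1, 2 of 6 of Acaca, 2 of 4 of Acss2 and 1 of 4 of Acacb. Acly, which makes the acetyl-CoA used for fat, had its strongest loss 0.97 kb upstream of the start, from 117, 139 and 99.9 to 34.6, 44.7 and 40.7 (-1.54 ± 0.17). Not all lipid synthesis genes followed: the desaturase and elongase set had 13 gains beside 16 losses in 63 peaks. Fads2 had 5 gains and no loss in 10 peaks (1.33 at its strongest), while Elovl2 and Elovl5 had both. In triglyceride synthesis 17 peaks fell and 8 rose of 57, with 5 losses in 6 peaks at Pnpla5 (at its strongest from 159, 187 and 126 to 33.3, 40.5 and 35.0, -2.07 ± 0.17) and 5 gains in 15 peaks at Gpam.

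Genes of cholesterol synthesis and uptake lost 45 of 160 peaks (28.1%) and gained 13 (8.13%), with a median of -0.12. Insig1, whose protein holds SREBP in the endoplasmic reticulum when sterols are plentiful, had 11 losses in 24 peaks. The deepest were 4 neighbouring peaks 7.75 to 8.57 kb downstream of the start, which held between 57.2 and 165 normalized reads in any fed library and between 1.13 and 13.5 in any fasted library. Their differences ran from -3.55 to -4.50, and at the one with the fewest fasted reads, at chr5:28079313-28079513, the fed libraries had 264 reads and the fasted libraries 19. Fasted B held the highest of the 3 in each. Just inside the same gene, 0.691 kb downstream of the start, a peak rose from 107, 74.4 and 124 to 245, 219 and 248.6 (1.24 ± 0.15, adjusted p = 0.00027). The start itself did not pass (0.14).

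Losses among the sterol enzymes numbered 20 in 58 peaks against 3 gains. Sc5d had 10 losses in 16 peaks. An upstream intronic peak of Msmo1 went from 141, 141 and 161 to 63.1, 63.9 and 61.0 (-1.22 ± 0.12) and an intron peak of Sqle, squalene epoxidase, from 169, 154 and 159 to 71.3, 80.0 and 50.9 (-1.26 ± 0.16). The earlier mevalonate enzymes were split, with 5 gains and 4 losses in 32 peaks. Hmgcs1 had 3 gains and 1 loss, led by a peak at 51.5, 46.5 and 49.9 in fed and 113, 105 and 114 in fasted libraries (1.15 ± 0.13). The promoter of Sqle (-0.16) did not pass.

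**Figure D4:**
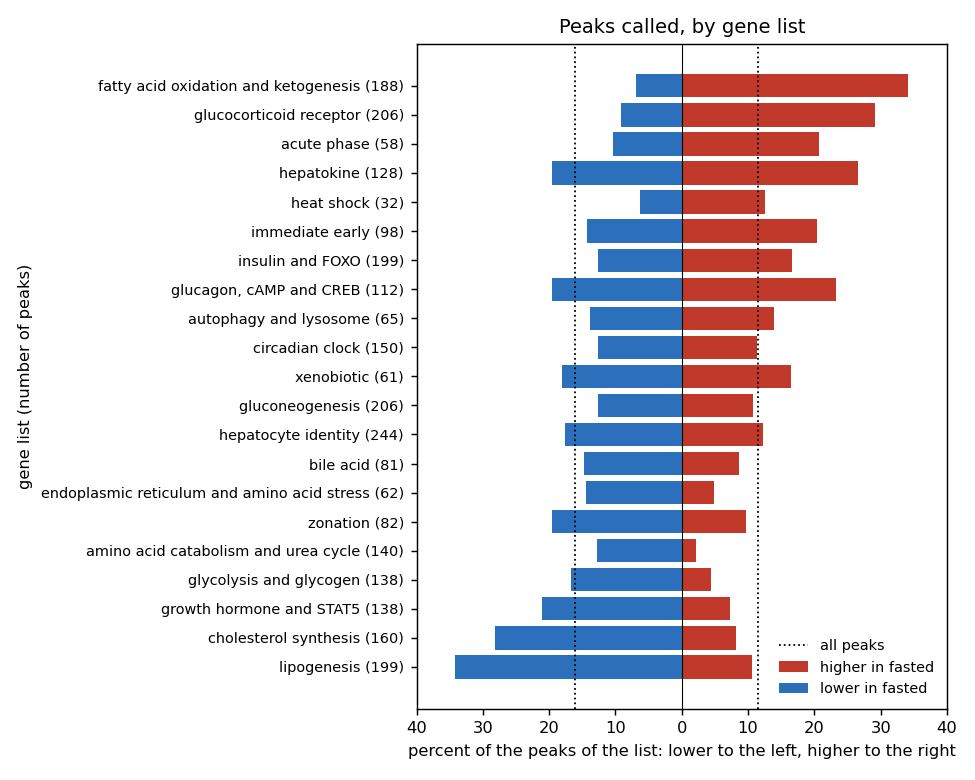
Bars give, for each gene list, the percent of its peaks that were lower (blue, to the left) or higher (red, to the right) in fasted mice, and dotted lines mark the same for all peaks (16.1% and 11.4%). Fatty acid oxidation stands at the top with 34.04% higher and lipogenesis at the bottom with 34.2% lower.

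Peaks nearest targets of the glucocorticoid receptor rose more often than they fell, while the called peaks nearest the receptor gene all fell. Of 173 peaks near 14 target genes 60 rose (34.7%) and 8 fell (4.62%), with a median of 0.28, and 13 of the 14 genes had a gain. Klf9, a Krüppel-like repressor, had 15 gains and no loss in 30 peaks, most of them in clusters far upstream and just upstream of the start. The strongest by p, at chr19:23056945-23057145 and 84.2 kb upstream, held 77.2, 51.8 and 61.1 in fed and 193, 155 and 222 in fasted libraries (1.57 ± 0.16, adjusted p = 0.000125). Zbtb16, a zinc finger factor, had 9 gains in 26 peaks, led by an intron peak that went from 110.0, 89.0 and 88.7 to 212, 149 and 185 (0.91 ± 0.14). Lpin1, a phosphatidate phosphatase, had 7 gains and 2 losses in 15 peaks, led by a peak 9.33 kb upstream (24.8, 22.6 and 13.8 against 109.9, 86.2 and 88.1, 2.19 ± 0.24). The clock gene Per1 had 6 gains in 9 peaks, at its strongest from 47.0, 37.2 and 29.6 to 90.3, 75.3 and 114 (1.28 ± 0.21).

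Fkbp5, a chaperone that restrains the receptor, passed at 1 of 8 peaks: an intron site went from 39.0, 27.9 and 18.4 to 134, 55.1 and 155 (1.90 ± 0.36), with fasted B well under the other two. Cdkn1a had gains at all 4 of its peaks and Mt1 at 3 of 4. Ddit4, a stress-induced inhibitor of mTORC1, went the other way with 3 losses and 1 gain in 8 peaks, at its strongest from 144, 145 and 126 to 47.5, 61.3 and 42.9 (-1.44 ± 0.15). Nr3c1, the receptor gene, had 11 losses and no gain in 33 peaks. The losses lay 16.2 to 141 kb from its start, and which gene these peaks serve was not tested. The strongest by p lay 123 kb downstream of the start, in the last intron of a transcript. It held 493, 527 and 461 in fed and 230.0, 255 and 184 in fasted libraries (-1.15 ± 0.11, adjusted p = 8.09e-05). For receptor and targets together the counts were 60 higher and 19 lower of 206, and 38 and 28 under the scaling to peaks near starts.

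In the glucagon and cAMP pathway the counts differed by role, but each role holds few genes and single genes weigh heavily. Transcription factors and coactivators had 12 gains (26.1%, against 11.4% of all peaks) and no loss (against 16.1%) in 46 peaks. Of these gains 6 were at Ppargc1a, the coactivator of the fasting programme. Its strongest peak lay far downstream of the start and went from 26.6, 23.9 and 30.2 to 82.8, 59.7 and 108 (1.57 ± 0.23, adjusted p = 0.00072). Nr4a3 had 3 gains in 4 peaks and Nr4a1 had 2 in 7. The phosphodiesterase genes, whose products break down cAMP, had 13 losses (48.1%) and 3 gains (11.1%) in 27 peaks. Most of these peaks, 21, were nearest 1 gene, Pde4b, with 11 of the losses and 2 of the gains, so the count says little about the other phosphodiesterases. An intron peak of Pde4b fell from 89.6, 83.6 and 90.7 to 34.6, 42.1 and 42.9 (-1.13 ± 0.16). The glucagon receptor gene Gcgr had 2 gains and 2 losses in 8 peaks. Sik1, a kinase induced by cAMP that restrains its coactivators, had 9 gains and 6 losses in 25 peaks; at 18.4 kb upstream it went from 31.1, 65.1 and 42.1 to 183, 149 and 199 (1.97 ± 0.22, adjusted p = 0.000174). Over the whole list 26 of 112 peaks rose (23.2%) and 22 fell (19.6%), and the balance turned to 21 and 28 under the scaling to peaks near starts and was even, 17 and 17, without fasted A.

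Gluconeogenic genes had 22 of 206 peaks higher (10.7%, against 11.4% of all peaks) and 26 lower (12.6%, against 16.1%), so neither share was above that of the whole table. The median was 0.03, and the balance turned to 21 and 17 without fed A and stood at 16 and 37 under the scaling to peaks near starts. Pck1, the gene of phosphoenolpyruvate carboxykinase, had 4 gains in 15 peaks, the strongest 10.6 kb downstream of the start from 53.2, 47.8 and 36.8 to 82.8, 83.6 and 88.1 (0.89 ± 0.17). G6pc had 1 gain and 1 loss in 15. Gpt2, an alanine aminotransferase, had 4 gains in 11 peaks, at its strongest from 46.1, 42.5 and 29.6 to 109.9, 85.2 and 94.9 (1.29 ± 0.20). Losses fell on Fbp1 (4 of 14 peaks, -1.02 ± 0.19 at the strongest), Pcx (4 losses and 3 gains of 22, -1.02 ± 0.14) and Mdh1 (3 of 6, -1.59 ± 0.29). At Mdh1 fasted C was again lowest, at 28.3 against 59.0 and 82.1.

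Peaks near genes of the insulin pathway had 33 gains (16.6%, against 11.4% of all peaks) and 25 losses (12.6%, against 16.1%) in 199. The counts were 21 and 33 under the scaling to peaks near starts, 21 and 16 without fed B and 19 and 16 without fasted A. Of the 33 gains 17 lay nearest Ptpn1, which had 30 of the 199 peaks, so the excess of gains rests on 1 locus. Which gene these distal peaks serve was not tested. Ptpn1 encodes the phosphatase PTP1B, which turns off the insulin receptor, and had no loss in its 30 peaks. The peak at its start was not called. The gains lay between 19.5 and 105 kb from the start, all but 1 of them upstream, and the strongest by p, at chr2:167831212-167831412, held 69.2, 79.7 and 90.0 in fed and 164, 198 and 177 in fasted libraries (1.17 ± 0.12, adjusted p = 0.000126). Among other genes of the signalling cascade, Pik3r1 had 6 losses and 1 gain in 29 (at its strongest from 217, 228 and 239.8 to 124, 101 and 81.4, -1.17 ± 0.13), Akt2 had 3 losses in 8 (-1.57 ± 0.19) and Irs2 had 3 losses and 1 gain in 16 (-1.31 ± 0.15). Igfbp1, an insulin-repressed secreted protein, had 4 gains in 7 peaks, the strongest 6.25 kb downstream of the start from 34.6, 30.5 and 13.1 to 168, 75.3 and 138 (2.27 ± 0.35, adjusted p = 0.000923). Its 3 fasted values spread, with fasted B lowest, and all lay above the fed ones.

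Growth hormone signals through JAK2 and STAT5, and the genes of this pathway lost 29 of 138 peaks (21.0%, against 16.1% of all peaks) and gained 10 (7.25%, against 11.4%), with a median of -0.07. All but 31 of the 138 lay beyond 1 kb of a start. Of all peaks that far out 23.0% fell and 10.5% rose, so the share of losses was not above that of distal peaks. Cish, a feedback inhibitor, had 6 losses in 9 peaks; the strongest, 8.56 kb downstream of the start, fell from 133, 179 and 181 to 44.8, 57.7 and 47.5 (-1.69 ± 0.16, adjusted p = 7.77e-05). Igf1, the main effector hormone, had 7 losses and 1 gain in 22 peaks, with 71.9, 86.3 and 76.2 against 40.04, 44.2 and 35.0 at the strongest (-0.96 ± 0.17). Cux2, a female-biased repressor in mouse liver, had 5 losses and 1 gain in 12 peaks (250.3, 289 and 286 against 102, 119 and 124, -1.25 ± 0.10). Socs3 rose at 3 of 8 peaks and Socs2 at 1 of 4. Clock genes had 17 gains (11.3%) and 19 losses (12.7%) in 150 peaks, close to or below the shares of the whole table. The counts were 5 and 25 under the scaling to peaks near starts and 6 and 19 without fasted A. Dbp, an output factor of the clock, fell at its start from 87.0, 59.7 and 94.6 to 22.4, 29.1 and 23.7 (-1.63 ± 0.23, adjusted p = 0.000487), and Nfil3, a repressor of the same sites, had 4 losses and 1 gain in 16 peaks, at its strongest from 91.4, 78.3 and 71.6 to 11.5, 17.7 and 7.91 (-2.67 ± 0.30).

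Glycolysis and glycogen genes had 23 losses (16.7%, against 16.1% of all peaks) and 6 gains (4.35%, against 11.4%) in 138 peaks, so losses were about as frequent as in the whole table. Among them was the liver pyruvate kinase gene Pklr at 3 losses in 4 (at its strongest from 58.6, 108 and 80.2 to 19.7, 27.0 and 21.5, -1.78 ± 0.25). Amino acid catabolism and the urea cycle had 18 losses (12.9%) and 3 gains (2.14%) in 140, both below the shares of the whole table. The losses included Ass1, a urea cycle enzyme, at 6 losses in 15 peaks (-0.57 ± 0.14 at the strongest), Prodh, proline dehydrogenase, at 4 in 9 (288, 398 and 271 against 171, 169 and 141, -0.97 ± 0.13), and Gls2, liver glutaminase, at 2 in 5 (-0.83 ± 0.16). Secreted hepatokine genes moved both ways, 34 up (26.6%) and 25 down (19.5%) of 128 (22 and 34 under the scaling to peaks near starts). Angptl8, which insulin induces, had 7 losses in 15 peaks (199.7, 219 and 179 against 74.0, 89.3 and 62.2, -1.41 ± 0.14), while Gdf15, a stress hormone that limits appetite, rose at its promoter (72.8, 63.7 and 76.9 against 151, 106 and 159, 0.94 ± 0.16). Immediate early genes had 20 gains (20.4%) and 14 losses (14.3%) in 98 peaks, with Fos up at 3 of 7 (41.7, 34.5 and 44.0 against 134, 102 and 145, 1.63 ± 0.17) and Jun at 5 gains and 4 losses in 14. That balance turned to 9 and 17 under the scaling to peaks near starts and to 9 and 10 without fasted A, and was even without fed B (12 and 12) or fasted C (14 and 14).

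For the remaining lists the counts can be read against 11.4% higher and 16.1% lower over all peaks. Hepatocyte identity genes had 30 gains and 43 losses in 244 peaks, with Alb at 7 gains in 16, Cebpb at 6 gains in 8, Foxa2 at 9 losses in 28 and Cebpa at 7 losses and 1 gain in 19. Counts were 8 and 16 in 82 for zonation genes, 7 and 12 in 81 for bile acid genes (5 and 4 without fed B), 9 and 9 in 65 for autophagy and lysosome genes, and 10 and 11 in 61 for xenobiotic genes (10 and 9 without fasted B). Acute phase genes had 12 and 6 in 58, genes of endoplasmic reticulum and amino acid stress 3 and 9 in 62, and heat shock genes 4 and 2 in 32. Of the other cell types, peaks nearest macrophage markers stood at 0 gains and 1 loss in 3, stellate markers at 0 and 2 in 4, and bile duct markers at 0 and 2 in 4.

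Counting peaks by their nearest gene, 15001 genes had a peak, of which 2529 had gains alone, 3519 losses alone, 1424 both and 7529 neither. The genes with most gains were Ptpn1 with 17, Klf9 with 15 and Pim3 with 11 in 25 peaks (and 1 loss). Rasgef1b, Sik1, H2afy3, Zbtb16 and Rreb1 had 9 each, though Sik1 also had 6 losses, H2afy3 had 5, and Rasgef1b and Rreb1 had 3. Slc6a6, the taurine transporter gene, led the losses with 14 in 23 peaks and no gain. Its strongest, in an intron, held 272, 296 and 233 in fed and 113, 158 and 122 in fasted libraries (-1.03 ± 0.13, adjusted p = 0.000276). It was followed by the noncoding gene 4930542M03Rik with 13 in 18 (258, 262 and 281 against 151, 149 and 163, -0.79 ± 0.08), Pde4b, Insig1 and Nr3c1 with 11 each, and Cdh26, Edn2 and Atxn7l1 with 10 each. All 10 peaks of Cdh26, a cadherin gene, fell, but they lie 149 to 458 kb from its start, so the gene only names the region; the farthest went from 74.5, 104 and 73.6 to 12.9, 14.5 and 9.04 (-2.70 ± 0.27). Likewise the 10 losses in 11 peaks nearest Edn2, an endothelin gene, lie 33.0 to 93.5 kb away. Genes with at least 3 peaks that all moved one way numbered 30 for gains (Armc12 and Phgdh with 5 peaks, and Cdkn1a and Cyp4a14 among those with 4) and 48 for losses (Cdh26 with 10, Mir499 and Mir6352 with 7, Thrsp with 6).

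**Figure D5:**
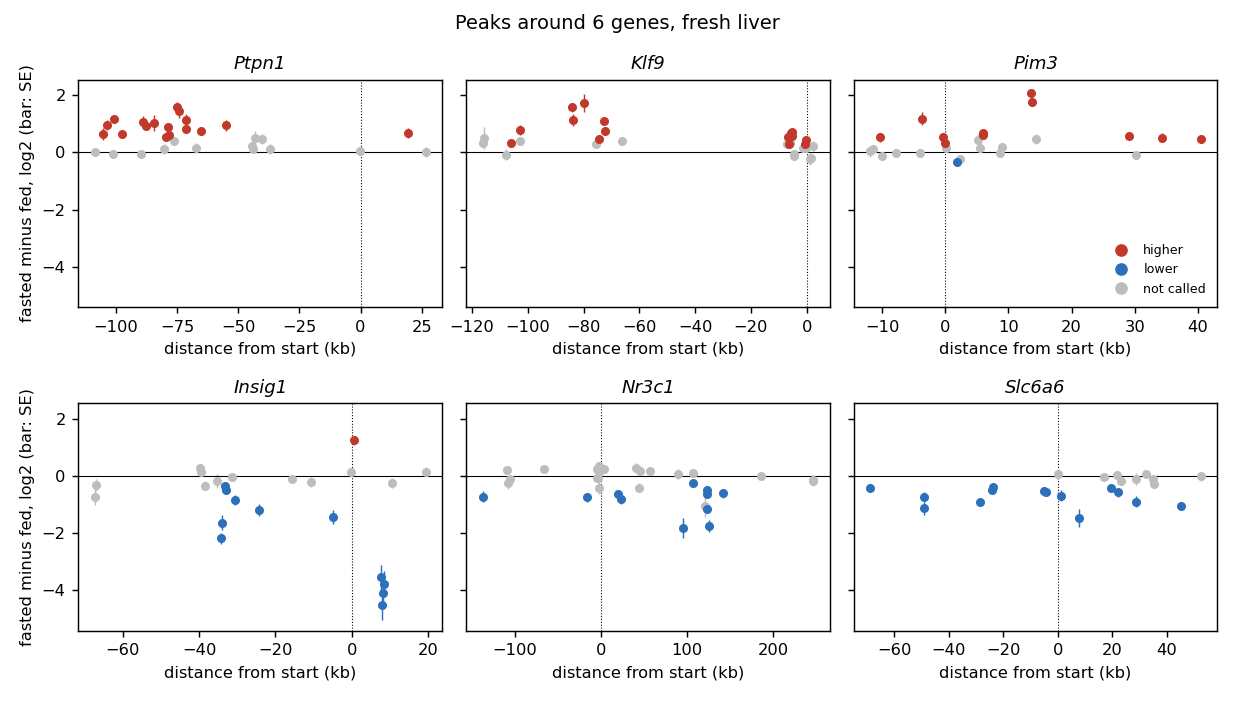
Each panel shows the peaks nearest 1 gene by their distance from its start (x axis, kb) and their fasted minus fed difference (y axis, log2, bars ± 1 SE). Gains at Ptpn1 and Klf9 cluster upstream, Insig1 combines 4 deep losses downstream (-3.55 to -4.50) with 1 gain next to the start, and Nr3c1 and Slc6a6 show losses on both sides.

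Promoter sequence was compared with the response. RefSeq windows from 250 bases before to 50 after a start overlapped 9575 peaks by at least 100 bases, of which 12.2% rose and 2.27% fell. GC content went with the direction: in the 25% of windows lowest in GC (at most 56%) 5.81% rose and 5.65% fell, and in the 25% highest in GC (at least 68.7%) 20.9% rose and 0.556% fell. Exact matches on both strands were counted for 19 motifs. The CREB palindrome TGACGTCA was in 588 of 32851 windows (1.79%) and in 329 with a peak, of which 57 rose (17.3%) and 1 fell (0.304%). Copies at promoters with some of the larger gains, chosen after their values were seen, and the 1 at the promoter that fell, are shown with 10 bases on each side and the match in capitals.
Dusp8 chr7:142095374-142095401 (- strand, 107 bases before the start): cccgctccgcTGACGTCAcctgcccccg
Dusp8 chr7:142095330-142095357 (- strand, 63 bases before the start): tggctgcaggTGACGTCAggggcttttt
Maff chr15:79347481-79347508 (+ strand, 29 bases before the start): gctggggcggTGACGTCActgcatgact
Heca chr10:17948203-17948230 (- strand, 153 bases before the start): ggcgcctggaTGACGTCAcccagagccg
Heca chr10:17948167-17948194 (- strand, 117 bases before the start): gcgccgagcgTGACGTCAcgggggcgga
Ice2 chr9:69397903-69397930 (+ strand, 85 bases before the start): ggcgctcgcgTGACGTCAtcacgcgcgg
Ppm1d chr11:85311159-85311186 (+ strand, 85 bases before the start): gcgagccgagTGACGTCAtcaggagaaa
Pnpla3 chr15:84167760-84167787 (+ strand, 46 bases before the start): gggcctcagcTGACGTCAcccgaagaca
Dusp8, a phosphatase of stress kinases, carries 2 copies, and its promoter peak went from 61.2, 74.4 and 65.7 to 190.0, 171 and 177 (1.41 ± 0.11, adjusted p = 4.3e-05). Maff, a small Maf factor, went from 28.4, 19.9 and 40.1 to 65.1, 67.0 and 71.2 (1.23 ± 0.25). Heca rose by 0.95, Ice2 by 0.90 and Ppm1d by 0.68. Pnpla3, a lipase-like gene of the lipogenic list, fell from 248, 301 and 191 to 179, 169 and 164 (-0.50 ± 0.13, adjusted p = 0.0165).

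The SREBP sequence TCACNCCAC (N is any base, and the sequence covers the classical sterol element) had more called losses than gains. It was in 408 windows (1.24%) and in 109 with a peak, of which 6 rose (5.50%) and 11 fell (10.1%), against 12.3% and 2.18% of the peaks without it. Over all 109 peaks, called or not, the median difference was above 0, at 0.05 against 0.10 without the motif. All fasted values lay above all fed values at 29 of them and below at 13. Median GC content was 61.7% with the motif and 62% over all windows with a peak. The matches at promoters that fell and that lie before the start are shown with 10 bases on each side.
Camk1d chr2:5676096-5676124 (- strand, 68 bases before the start): ttcctgtctgGTGGGGTGAtctgcaaaag
Cdc42ep4 chr11:113751377-113751405 (- strand, 235 bases before the start): actgttcgggGTGGGGTGAgtgggcaggt
Gm34474 chr8:35218413-35218441 (+ strand, 217 bases before the start): tttctgctgtGTGGGGTGAcctagagaca
Ugt1a5 chr1:88165950-88165978 (+ strand, 52 bases before the start): gggccacccaGTGGCGTGAcaaggttgga
Gm30147 chr3:132479481-132479509 (+ strand, 106 bases before the start): aatatctgagGTGGAGTGAagacaggtca
Gm49668 chr17:15434895-15434923 (- strand, 57 bases before the start): tttggccctgGTGGTGTGAaccagaaatg
Ctsc chr7:88277986-88278014 (+ strand, 89 bases before the start): tacatctcagTCACTCCACgcccccgtcc
Ccdc38 chr10:93540414-93540442 (+ strand, 208 bases before the start): gtgtatgcgtGTGGTGTGAgtgtgcatgg
Camk1d, a calcium-dependent kinase gene, fell most, from 105, 113 and 97.9 to 38.0, 39.999 and 40.7 (-1.39 ± 0.15, adjusted p = 0.000133). The peak at the Gm34474 window, nearest Ppp1r3b, a glycogen-targeting subunit gene, fell by 0.63. The other 3 falling peaks, at Nxph1, Cyp2b10 and Spag9, have the match after the start. The largest of the 6 gains was at Adamts1, from 29.3, 26.6 and 36.8 to 91.6, 80.0 and 104 (1.55 ± 0.19). No enzyme of sterol or fatty acid synthesis was among the 17 called windows with this exact sequence.

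Other motifs were read the same way, against the 12.2% higher and 2.27% lower of all windows with a peak. The E-box CACGTG, the site of clock and Myc family factors, was in 7.15% of windows and in 1082 with a peak, of which 178 rose (16.5%) and 14 fell (1.29%). Windows with the HNF4 sequence CAAAGTCCA had 6 gains (10.5%) and 7 losses (12.3%) in 57 peaks, and the motif was in 0.475% of all windows. The forkhead sequence TGTTTAC, in 3.65% of windows, had 29 gains (10.8%) and 12 losses (4.48%) in 268 peaks. The AP-1 sequence TGANTCA, in 7.81%, had 63 (14.7%) and 20 (4.65%) in 430. The ETS sequence CCGGAAGT, in 3.89%, had 81 (9.68%) and 5 (0.597%) in 837. The glucocorticoid receptor element, in 0.475%, had 4 gains (16%) and no loss in 25. The direct repeat of PPAR and RXR (in 0.381% of windows) had 1 gain and 1 loss in 34 (2.94% each). Matches of the HNF4 sequence lay mostly in windows of lower GC (median 54%). These counts describe exact letters in a short window and nothing about which factors were bound.

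Some fasting differences passed in fresh liver and did not pass in frozen liver. Of the 6003 gains 1421 (23.7%) had an unadjusted p over 0.05 in frozen liver, and of the 8474 losses 1102 (13.0%) did. Most still went the same way there, 1353 of the 1421 and 1053 of the 1102, with medians of 0.21 in frozen against 0.40 in fresh liver for the gains and -0.31 against -0.52 for the losses. Because these peaks were picked for passing in fresh and missing in frozen liver, smaller frozen medians follow from the choice. A p that misses the threshold does not show that the preparations differ, so the difference itself was tested. By the mouse numbers in the titles, each of the 6 mice gave 1 fresh and 1 frozen library, so the preparations are repeated samples of the same animals. With all 12 libraries in one fit and no block, which treats them as independent, no peak had a fasting difference that differed between preparations at an adjusted p under 0.05 (0.0%), and 2702 did at an unadjusted p under 0.05. The labels do not say which mouse a letter stands for, and same-letter fresh and frozen columns deviated together (correlations of 0.329 to 0.640 after removing group means). With the letter as block 208 peaks (0.396%) had a fresh difference above the frozen one and 187 (0.356%) below it. Of the 2523 fresh-only peaks 17 were among these (0.674%, 7 gains and 10 losses), a share no higher than the 395 of all 52530 peaks (0.752%). The 2 peaks that follow were chosen for the size of the difference between preparations and are given as a description. Upstream of Nags, the gene of N-acetylglutamate synthase, fresh libraries held 134, 79.7 and 135 fed and 159, 189 and 162 fasted reads, and frozen libraries held 166, 134 and 160.3 and 137, 166 and 142. The fresh difference was 0.58 ± 0.18 and the frozen one -0.04 ± 0.13. Near Eml4 fresh values fell from 161, 155 and 124 to 119, 105 and 80.2 and frozen values went from 95.3, 87.6 and 81.5 to 109, 93.3 and 80.1.

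The authors' deposited table carries its own fresh comparison, and at an adjusted p under 0.05 it calls 4689 peaks higher and 7422 lower in fasted liver. Of these 4589 and 7346 were also called here in the same direction, or 97.87% and 98.98%, and they make up 76.4% and 86.7% of the calls made here. At the edge of the threshold, the last peaks inside were near Tpcn1 (0.28), Eif1a (-0.31), Pik3cb (-0.31) and Psma6 (0.49), and the first outside were near Etv6 (-0.44), Col18a1 (0.23), Gorasp2 (-0.34) and Nup210 (0.46), with groups that did not overlap in any of the 8.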

How the data were processed

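ATAC-seq libraries of bead-bound hepatocyte nuclei from fed and fasted mice were read from 1 deposited table of 52530 peaks of 200 bp. Per the submitters' processing notes the reads were processed on build mm10 with BWA (0.7.5a-r405), HOMER, SAMtools and DESeq2, without saying which step each did. The values are the authors' normalized signal per peak: in each column all values were whole multiples of 1 step (tolerance 1e-06 reads), and depths are given with that step taken as 1 read, which no source used here states. The authors' log2 fold change and adjusted p-value were deposited in the same table, as were a peak score, which was not used, and each peak's annotation.

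The 6 fresh columns were compared with limma 3.58.1 (R 4.3.3; trended variance) on log2(value + 1), fasted against fed, 3 against 3, with Benjamini-Hochberg adjustment over all peaks and a threshold of 0.05. A log2 difference on this scale understates the change of low peaks. Groups came from the labels, and peaks were assigned to the gene the table names as nearest. Differences are given ± SE. Single values were compared by exact permutation (SciPy 1.17.1, Python 3.11.15). On simulated data for this comparison over 52530 peaks, 10% of 50 peaks changed 1.25-fold, 74% of 50 changed 1.5-fold and 100% of 50 changed 2-fold were found, with 6 false calls. Only 200 peaks were changed there, with 1 dispersion for all peaks, so the adjusted threshold was stricter than in the data.

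Named peaks were the 10 largest called gains and losses (groups apart, mean above the median), up to 4 genes per list role by lowest p and genes that went the other way, the peak nearest 34 gene starts, the 8 loci with most calls each way, the 5 fresh-only peaks each way with the largest difference from frozen, and the 4 peaks on each side of the threshold. Other peaks of a locus, and genes named by counts alone, were chosen after their values were seen. The comparison and lists were chosen with earlier results of these data known. Alternatives covered the pseudocount, low peaks, scaling, variance prior, column letter as block, all 12 libraries in one fit and each library left out. Counts include a few genes whose own values are not reported here. Sequences are RefSeq's (GRCm38.p6).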

Additional observations from a re-analysis of the deposited data

Results flagged for a closer look

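At 5 of the peaks named as seen in fresh liver alone the fasting difference lay past the threshold between fresh and frozen liver (limma, column letter as a block), and without the block at none of them. The peaks were picked for the size of this same difference, so their values are a description and no test of it. Over all fresh-only peaks the share past that threshold was 0.674%, against 0.752% of all peaks. The peak 2.33 kb upstream of Nags, the gene of N-acetylglutamate synthase, differed by 0.62 on the log2 scale between fresh (0.58) and frozen (-0.04). The promoter peak of Zfyve21 differed by 0.56, with 0.37 in fresh and -0.19 in frozen liver, and that of Sipa1l2 by 0.47, with 0.39 and -0.08. The peak 42.3 kb upstream of Eml4 had a fresh minus frozen difference of -0.63, from -0.54 in fresh and 0.09 in frozen liver. At Plch2 it was -0.60, from -0.48 and 0.12. At Sipa1l2 the fed level also differed between preparations, with 159 to 177 normalized reads in fresh and 296 to 326 in frozen libraries.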

How the results depend on the processing

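No alternative changed the sign of any called peak among the 52530, which was largely fixed in advance. Called differences were at least 0.19 or at most -0.20, and the largest shift of the median was -0.12. At 5860 gains and 8362 losses the groups did not overlap, so leaving out a library could not change the sign. Of 5846 alternative values for the 396 named peaks 5520 kept their side of the threshold, 231 lost a call and 95 gained one. Scaled to peaks within 1 kb of a start, 2952 peaks were higher (903 near starts and 2049 beyond) and 1286 near starts were lower. Without the lowest 25% of peaks 5032 were lower (420 near starts and 4612 beyond) and 2215 beyond starts were higher, with fewer peaks tested. Leaving out each library in turn gave 3165 to 5887 peaks higher and 6087 to 8755 lower, with 1054 to 2353 higher and 418 to 664 lower near starts, and 2111 to 3534 higher and 5669 to 8091 lower beyond. The shift of reads toward starts stayed between 2.84 and 3.33 points. Quantile normalization gave 8121 higher and 8446 lower, so that 49.0% of calls were gains against 41.5% in the comparison as reported and 19.9% under the scaling to peaks near starts. Other causes of these moves were not tested.

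Among lists with at least 15 such calls, leaving out 1 library moved these counts by over 1.5 times. The losses of the gluconeogenesis list went from 26 to 17 without fed A, 17 without fed B and 17 without fasted A. The losses of the glycolysis and glycogen list went from 23 to 15 without fed A and 15 without fed B. The losses of the insulin and FOXO list went from 25 to 16 without fed A, 16 without fed B and 16 without fasted A. The losses of the amino acid catabolism and urea cycle list went from 18 to 8 without fed A, 8 without fed B and 10 without fasted A. The gains of the immediate early list went from 20 to 13 without fed A, 12 without fed B and 9 without fasted A. The losses of the zonation list went from 16 to 8 without fed A, 7 without fed B and 9 without fasted A. The gains of the insulin and FOXO list went from 33 to 21 without fed B and 19 without fasted A. The losses of the growth hormone and STAT5 list went from 29 to 19 without fed B. The gains of the circadian clock list went from 17 to 10 without fed B, 10 without fed C and 6 without fasted A. The gains of the gluconeogenesis list went from 22 to 13 without fasted A. The gains of the glucagon, cAMP and CREB list went from 26 to 17 without fasted A.

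Fed and fasted libraries are different mice, and their same-letter correlations (0.132, 0.0157 and 0.0388) do not pair them; with the column letter as a replicate block 5896 peaks were higher and 8660 lower. For the difference between preparations the block moved the count from 0 (2702 at an unadjusted p under 0.05) to 395.

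The number of libraries per group (3) and 86.0 to 217 reads per median peak limit what small changes can be seen. The simulation found 10% of 1.25-fold changes, but it changed only 200 peaks, against 14477 called in the data. Its adjusted threshold was therefore stricter, and that share does not carry over to the data. Low peaks rest on few reads, and nearest-gene names do not show which gene a distal peak serves.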
